A study of Mus musculus with 20 samples.

Results

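The transcripts described here are those of the mouse mitochondrial genome, a small circular chromosome (M) present in many copies in every muscle fibre. Its members were taken from the GENCODE annotation as all genes on chromosome M: 13 protein-coding genes, 2 rRNA genes and 22 tRNA genes, in all 37 of the 55401 genes in the count matrix, and every one was found there by its Ensembl identifier. RNA was from the gastrocnemius, a mixed and mostly fast calf muscle, of 20 C57BL/6 mice aged 24 months. Of these, 10 HK-treated mice had received Haenkenium (HK), a standardized extract of the sage Salvia haenkei, in the drinking water at 0.5 mg/kg/day from 20 months of age, and 10 untreated mice had drinking water alone. Each treatment group held 5 males and 5 females, and each held 4 mice of experimental batch 1 and 6 of batch 2, the batches being separate sequencing experiments. No gene was altered in any mouse, each library came from whole muscle, and young mice were not analysed here.

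Both strands of the mitochondrial genome are transcribed almost end to end into long precursors. The heavy-strand precursor carries both rRNAs, 12 of the 13 mRNAs and 14 of the 22 tRNAs, and the light-strand precursor carries mt-Nd6 and 8 tRNAs. The tRNAs lie between the other genes, and their excision by RNase P and ELAC2 frees the mRNAs and rRNAs, whose stability then sets much of their level. The mRNAs encode core subunits of respiratory complexes I, III, IV and the ATP synthase, and are translated on mitochondrial ribosomes built around 12S rRNA (mt-Rnr1) and 16S rRNA (mt-Rnr2). Skeletal muscle is rich in these transcripts because contraction draws on oxidative phosphorylation, and the other subunits of the same complexes are encoded in the nucleus.

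Per the labels, the libraries were made with an rRNA depletion kit. Of 8 abundant non-coding RNAs, Rn7s2, Rmrp, Rpph1 and Terc had no count in any mouse. Rn7s1 had some counts but too few to be tested. Rn7sk averaged a log2 CPM of -0.21, while Malat1 and Neat1 averaged 9.91 and 10.09. Which RNAs the libraries captured was not tested, and the level of an rRNA here is what remained in them. Total counts per mouse were between 13900180 and 30469644, and the 10 skeletal muscle markers summed to between 143301 and 200271 CPM in each mouse. CPM is a count scaled to the library's size after TMM normalization. The 37 genes held between 6.31% (HK female 4) and 9.97% (HK male 1) of the counts of a mouse, with a median of 8.45%.

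Some of these genes have near-identical copies in the nucleus. A stretch of nuclear chromosome 1, chr1:24611535-24616197 on the minus strand of GRCm38, holds 7 annotated unprocessed pseudogenes that match chrM:6390-11042 in the same order. Gm28661, Gm10925, Gm28437 and Gm10222 were identical over their whole aligned length to mt-Co2 (681 bases), mt-Atp6 (678 bases), mt-Co3 (783 bases) and mt-Nd4l (294 bases). Gm28439 was identical to the first 876 bases of mt-Nd4. Gm28438 differed from mt-Nd3 at 1 of 345 bases, and Gm29216 from the last part of mt-Co1 at 1 of 483 bases. Within this stretch 6 mRNA genes and 5 tRNA genes lie whole. The first 75 bases of mt-Atp6 (chrM:7927-8001) and of its copy (chr1:24614577-24614651) are shown because they are the same letter for letter, so a read of 75 bases from one could not be told from the other:
mt-Atp6: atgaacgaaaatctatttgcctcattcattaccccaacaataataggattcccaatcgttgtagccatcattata
Gm10925: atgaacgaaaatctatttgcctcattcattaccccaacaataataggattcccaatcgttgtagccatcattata

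The first 75 bases of mt-Nd3 (chrM:9459-9533) and of its copy (chr1:24613045-24613119) are shown because they hold the only base that differs over the 345 aligned bases, T3C, counted from 1 at the 5′ end of mt-Nd3 and marked in capitals:
mt-Nd3: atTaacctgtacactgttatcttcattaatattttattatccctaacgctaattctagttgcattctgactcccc
Gm28438: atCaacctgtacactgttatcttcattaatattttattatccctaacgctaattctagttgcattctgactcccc

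The edges of the shared stretch run through mt-Co1 and mt-Nd4, which therefore lie part inside and part outside it. The outside part of mt-Co1 is not all unique, as Gm13340 on chromosome 2 aligned to the whole gene at 97.6% identity. The windows across the edges, chrM:6352-6426 in mt-Co1 and chrM:11005-11079 in mt-Nd4, are shown with the bases outside the aligned copy in capitals. In mt-Co1 the single difference from the copy, A1066T, counted from the 5′ end of mt-Co1, lies 4 bases into the aligned part:
mt-Co1 start of copy: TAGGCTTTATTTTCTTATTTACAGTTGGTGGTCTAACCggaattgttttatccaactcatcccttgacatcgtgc
mt-Nd4 end of copy: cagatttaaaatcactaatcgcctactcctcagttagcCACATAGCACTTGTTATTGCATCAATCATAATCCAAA

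Counts were low for the genes inside this stretch. Of the 13 mRNAs, 7 made up 93.7% of all mitochondrial counts, and the other 6 were those that lie whole inside the shared stretch and were close to 0 in nearly every mouse. Over all 20 mice together, mt-Co2, which encodes a copper-binding subunit of complex IV, had 112 counts. mt-Co3, the third core subunit of complex IV, had 6, and mt-Nd3 and mt-Nd4l, both of complex I, had 19 and 1. mt-Atp8, a small ATP synthase subunit, had 3 counts, and no annotated nuclear transcript matched it. mt-Atp6, the proton-channel subunit of the ATP synthase, had 3347, of which 3213 came from untreated female 4. Nearly all windows of 75 bases, the length of a read, were found unchanged in a nuclear transcript for 5 of these genes (mt-Co2 99.5%, mt-Atp6 99.5%, mt-Co3 99.9%, mt-Nd3 97.8% and mt-Nd4l 98.7%), against 39.8% for mt-Co1, 61.5% for mt-Nd4, 5.71% for mt-Nd2, 1.66% for mt-Nd5 and 0% for mt-Nd1, mt-Nd6, mt-Cytb and both rRNAs. How reads that fit several places were counted is not given in the sources used here and was not tested. The 6 genes are given by their counts alone, with no fold. Further nuclear copies of mt-Nd2, mt-Co1, mt-Nd5 and others were under 99% identical.

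The counts of the copies in the chromosome 1 stretch were also low. The 7 pseudogenes together had between 41 (untreated female 3) and 206 (HK male 2) counts in a mouse. The copies with the most counts lie on chromosome 2 and are less alike. Gm13340, 97.6% identical to mt-Co1, had 2156 counts over all mice (at most 170 in a mouse), against 7108383 for mt-Co1. Gm13341, 95.9% identical to mt-Co2, had 1241 (at most 83 in a mouse), which is more than the 112 of mt-Co2 itself. Gm28438 and mt-Nd3 divided by batch: Gm28438 had 0, 1 or 2 counts in each of the 8 mice of batch 1 and between 10 and 31 in each of the 12 mice of batch 2. mt-Nd3 had between 1 and 4 counts in the 8 mice of batch 1, and in batch 2 it had 1 count in HK male 4 and 0 in the others. The groups did not overlap for Gm28438. This pattern was singled out after the values were seen, in a comparison where 36.9% of all genes tested were called, and which base the reads carried at position 3 was not tested.

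**Figure D1:**
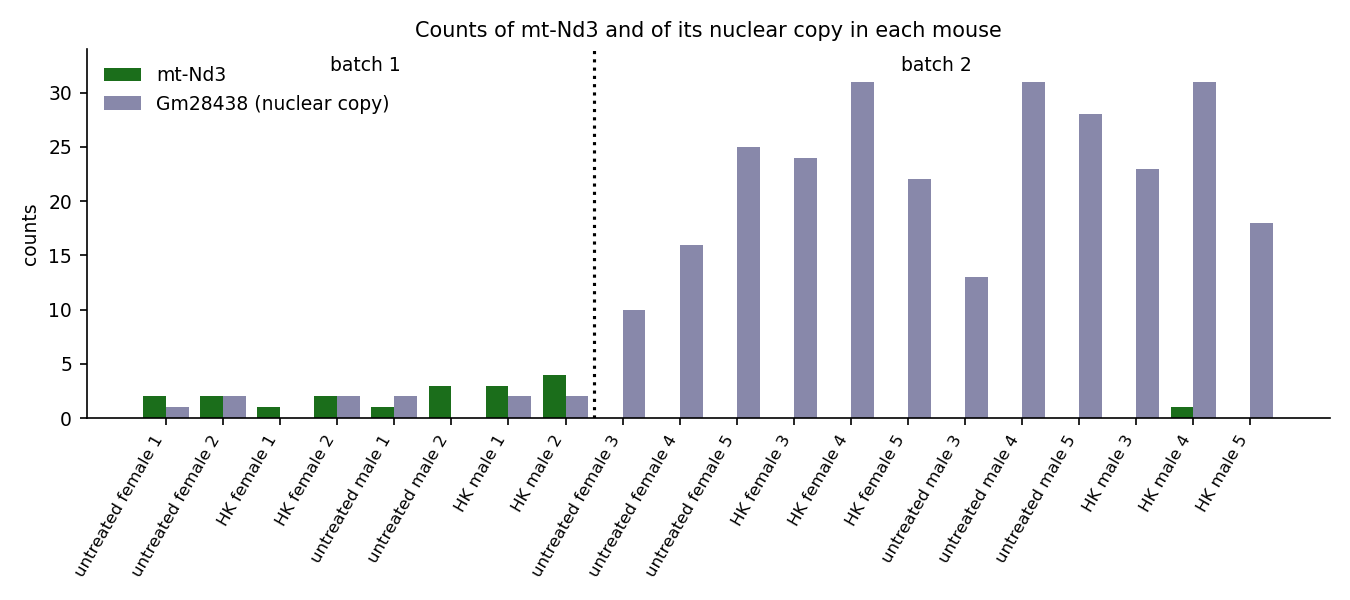
Counts (y axis) of mt-Nd3 (green) and of its nuclear copy Gm28438 (grey-blue) in each of the 20 mice (x axis), with batch 1 left and batch 2 right of the dotted line. The copy has at most 2 counts in every mouse of batch 1 and at least 10 in every mouse of batch 2.

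Among the 7 mRNAs with counts, mt-Co1 (chrM:5328-6872, GRCm38), the catalytic subunit of complex IV, had the largest part, 23.3% of the mitochondrial counts. It was followed by mt-Cytb (chrM:14145-15288), the only mitochondrial subunit of complex III, with 21.2%. mt-Nd1 (chrM:2751-3707), a membrane subunit of complex I with 5195091 counts over all mice, came next, and the complex I subunits mt-Nd2 (chrM:3914-4951), mt-Nd5 (chrM:11742-13565) and mt-Nd4 (chrM:10167-11544) had 12.6%, 10.3% and 9.23%. mt-Nd6 (chrM:13552-14070, minus strand), the complex I subunit on the light-strand precursor, had 0.155%. The 2 rRNAs, mt-Rnr1 (chrM:70-1024) and mt-Rnr2 (chrM:1094-2675), had 6.23% and the 22 tRNAs 0.0192%.

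Compared per length (CPM per kb of gene, mean ± SD, n = 20), the order was mt-Cytb (15586 ± 1926), mt-Nd1 (14962 ± 2157), mt-Co1 (12612 ± 1688), mt-Nd2 (10148 ± 1201), mt-Nd4 (5621 ± 774), mt-Nd5 (4738 ± 534), mt-Rnr2 (2536 ± 522), mt-Rnr1 (1417 ± 515) and mt-Nd6 (259 ± 67.3). Every neighbour in this order held its place in 20 of 20 mice except mt-Cytb and mt-Nd1, where mt-Cytb was higher in 16. The length was then replaced by the number of 75-base windows with no identical match in an annotated nuclear transcript. Unannotated nuclear sequence was not searched. By this measure mt-Co1 came first (22018 ± 2947 CPM per 1000 windows), before mt-Cytb (16664 ± 2059), mt-Nd1 (16216 ± 2338), mt-Nd4 (15429 ± 2126), mt-Nd2 (11589 ± 1372) and mt-Nd5 (5021 ± 565). The place of mt-Co1 and mt-Nd4 in the order thus depends on whether reads from their shared parts were counted.

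**Figure D2:**
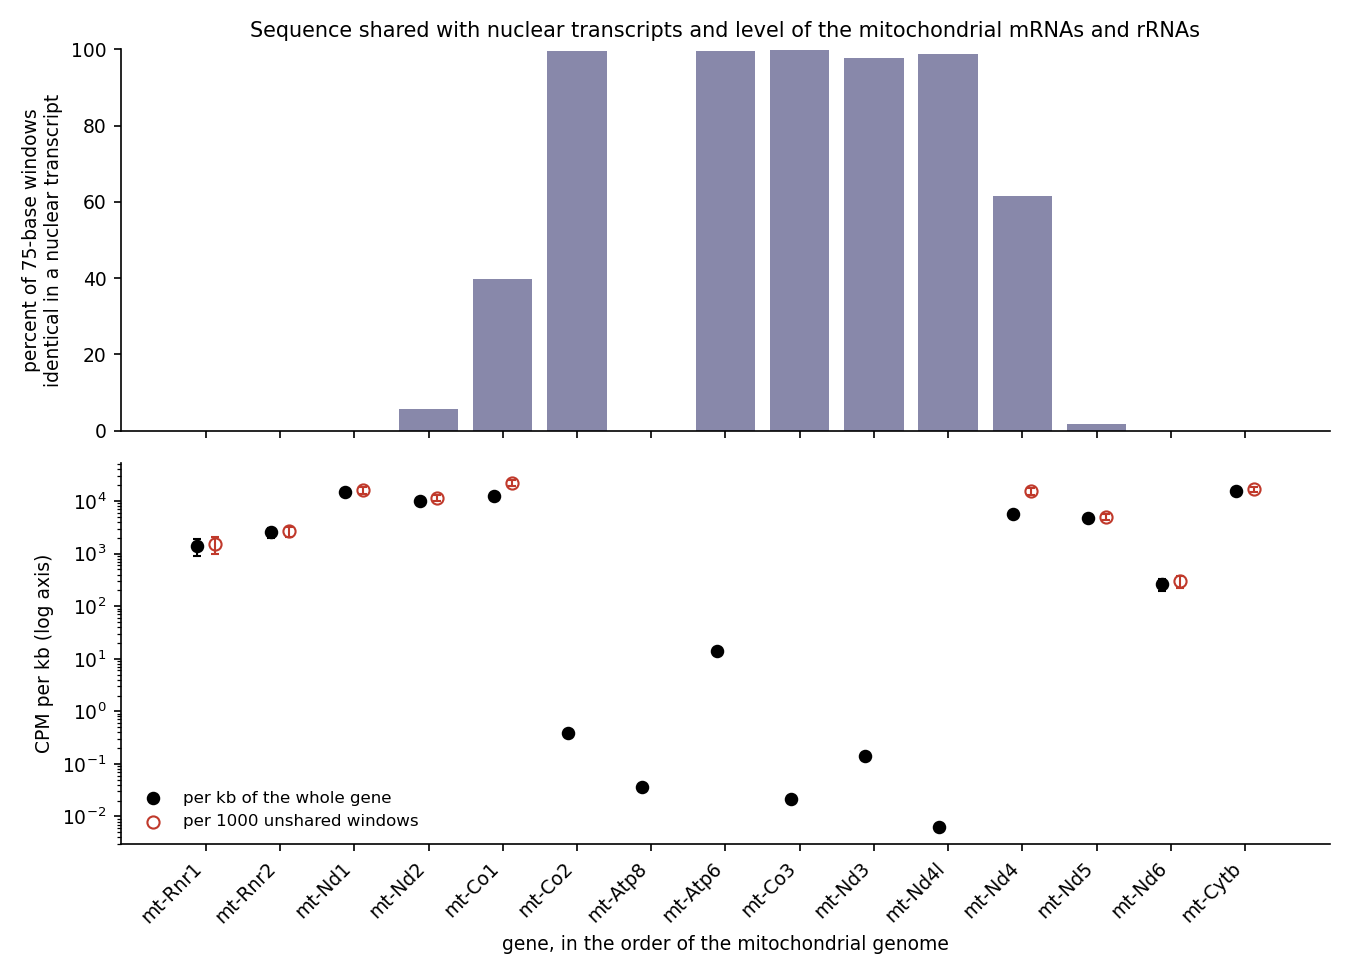
Upper panel, percent of the 75-base windows of each mRNA and rRNA found unchanged in an annotated nuclear transcript; lower panel, CPM per kb on a log axis, as the mean of 20 mice, per kb of the whole gene (black) or per 1000 unshared windows (red), with SD bars for the 9 genes with levels. The 6 mRNAs with the lowest points lie in the stretch copied on chromosome 1, and the red points of mt-Co1 and mt-Nd4 lie above their black ones.

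The tRNAs, of 59 to 75 bases, were barely counted. Of the 22, 10 had no count in any mouse, among them all 5 that lie in the shared stretch, and 15 never reached 10 counts in a mouse. A count of 0 in a library allows up to 3 counts, a limit that covers counting error only. The lowest mean level was shared by the 10 at 0 (mt-Tf, mt-Tv, mt-Ts1, mt-Td, mt-Tk, mt-Tg, mt-Tr, mt-Th, mt-Ts2 and mt-Tl2). The highest were mt-Ti, the isoleucine tRNA, with 2286 counts over all mice, mt-Tw, the tryptophan tRNA, with 1719, and mt-Tp, the proline tRNA, with 723. The sequences of these 3 genes (chrM:3706-3774, chrM:4950-5016 and, on the light strand, chrM:15356-15422) are shown because they carry most tRNA counts and are shorter than a read of 75 bases:
mt-Ti: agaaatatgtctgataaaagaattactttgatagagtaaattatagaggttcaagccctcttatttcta
mt-Tw: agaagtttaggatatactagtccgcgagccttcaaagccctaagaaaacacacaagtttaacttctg
mt-Tp: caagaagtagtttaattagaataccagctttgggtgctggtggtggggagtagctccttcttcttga

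mt-Ti shares its first bases with the end of mt-Nd1 and mt-Tw with the end of mt-Nd2, on the same strand, so a read across either border fits both genes. The use of strand in counting is likewise not given, which touches mt-Nd6 and the light-strand tRNAs.

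Of the 37 genes, 15 passed the filter on low counts: 7 mRNAs, both rRNAs and the 6 tRNAs mt-Ti, mt-Tq, mt-Tm, mt-Tw, mt-Tt and mt-Tp. They were tested with edgeR among 13626 genes for treatment, batch and sex in 1 model, a gene being called at a Benjamini-Hochberg adjusted p under 0.05.

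The first question was whether HK treatment altered these transcripts. In whole muscle, fewer cells of a type and less RNA per cell cannot be told apart. No member was called, against 0% of all genes tested, and none had an unadjusted p under 0.05, while over all genes 368 were higher and 437 lower at that level. DESeq2's Wald test called 0 members, where it called 7 of 30068 genes. The log2 fold changes (HK minus untreated) of the 9 mRNAs and rRNAs lay between 0.01 (mt-Nd4 and mt-Cytb) and 0.18 (mt-Rnr1), and the 15 members had a median of 0.05, against 0.00 over all genes. The mice overlapped almost entirely. mt-Co1 had a lowest, median and highest level of 14160, 20398 and 24425 CPM with HK and of 15869, 18991 and 22790 CPM without, a log2 fold change of 0.03 ± 0.06 (SE) with an adjusted p of 0.951 in edgeR. mt-Nd2 was at 8161, 10735 and 13820 CPM with HK and 8382, 10293 and 11790 CPM without, a log2 fold change of 0.10 ± 0.07 (SE) and an adjusted p of 0.842. mt-Rnr1 was at 871, 1216 and 2438 CPM with HK and 622, 1335 and 1851 CPM without, a log2 fold change of 0.18 ± 0.18 (SE) and an adjusted p of 0.875.

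The share of the library gave a like result. The 37 genes held 8.41% ± 0.987 of the counts in HK-treated mice (SD, n = 10) and 8.35% ± 0.768 in untreated mice (n = 10), a difference of 0.0644 percentage points (two-sided exact permutation within sex and batch, p = 0.838, adjusted p = 0.877 over 12 tests). In batch 1 alone the difference was 0.572 points (exact permutation p = 0.333, where 0.0556 is the smallest p possible) and in batch 2 alone -0.274 points (exact permutation p = 0.49), so the batches went in opposite directions. Neither an interaction of treatment with sex nor one with batch was called for any member, against 0% of the 13800 genes tested for each, and no member had an unadjusted p under 0.05 in either.

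Of the ratios within the mitochondrial counts, the one with the lowest p between treatments was mt-Cytb to mt-Nd1, though others differed by more. Its log2 ratio was 0.288 ± 0.0521 in HK-treated and 0.352 ± 0.121 in untreated mice (SD, n = 10 each), with each of the 10 HK values under the median of the other group. The exact permutation p was 0.045, and the adjusted p of 0.227 over 30 tests did not pass. The log2 ratio of mt-Rnr1 to mt-Rnr2 differed by 0.143 (exact permutation p = 0.15, adjusted p = 0.354). In males alone it differed by 0.299 (exact permutation p = 0.0167, the smallest possible, unadjusted) and in females alone by -0.0125 (exact permutation p = 0.917). The 13 mRNAs against the summed counts of 81 nuclear oxidative phosphorylation genes gave a log2 ratio of 1.93 ± 0.168 with HK and 1.87 ± 0.115 without (n = 10 each; exact permutation p = 0.264, adjusted p = 0.495). No fibre or cell marker was called for HK, against 0% of all genes tested. All 8 slow fibre genes had a lower fitted level with HK. Their median log2 fold change was -0.70, and 2 had an unadjusted p under 0.05 in edgeR. All 8 macrophage, 6 endothelial and 6 fibro-adipogenic progenitor genes were also lower, and all 5 blood and 5 Schwann cell genes higher. The other marker lists went both ways. The part of these markers was not tested.

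**Figure D3:**
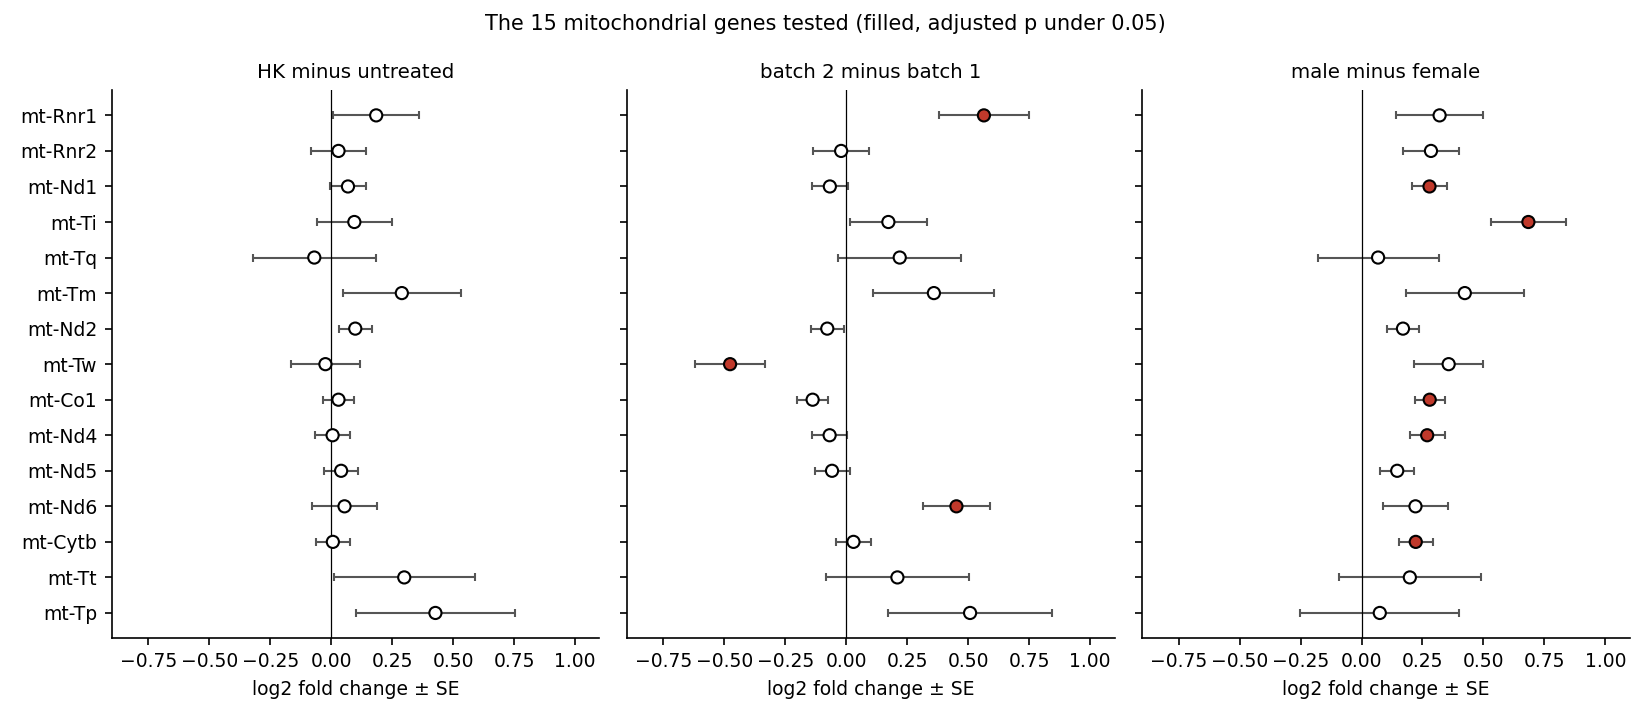
Log2 fold change ± SE (x axis) of the 15 members tested (y axis) for HK minus untreated, batch 2 minus batch 1 and male minus female; filled points have an adjusted p under 0.05 in edgeR. No point is filled for treatment, 3 are for batch and 5 for sex, where all 15 lie right of 0.

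The second comparison was between the sexes, which the design balances within treatment and batch. Mitochondrial transcripts took a larger share of the library in males. All 15 members tested had a positive log2 fold change (male minus female), with a median of 0.27 against -0.01 over all genes, and 5 were called higher and 0 lower, where 15.9% of all genes were called, 8.69% higher and 7.23% lower. Those called were mt-Co1, mt-Nd1, mt-Nd4, mt-Cytb and mt-Ti. Members of 1 precursor share their source, and their directions are not independent of each other.

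mt-Co1 had a lowest, median and highest level of 18189, 21819 and 24425 CPM in the 10 males and of 14160, 17903 and 20288 CPM in the 10 females. All 10 males lay above the female median and 8 above every female. Its log2 fold change was 0.28 ± 0.06 (SE), with an adjusted p of 0.00353 in edgeR, and was 0.26 in batch 1 alone and 0.29 in batch 2 alone. mt-Nd1 was at 13516, 15304 and 19055 CPM in males and 10146, 13066 and 15111 CPM in females, with 7 males above every female. Its log2 fold change of 0.28 ± 0.07 had an adjusted p of 0.0112, with 0.37 in batch 1 alone and 0.21 in batch 2 alone. mt-Nd4 was at 7302, 8503 and 10026 CPM in males and 5412, 7157 and 7863 CPM in females, again with 7 males above every female. Its log2 fold change was 0.27 ± 0.07 (adjusted p = 0.0126), with 0.27 and 0.26 within the batches.

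mt-Cytb was at 16602, 19028 and 22577 CPM in males and 13001, 16815 and 18555 CPM in females, and 5 males lay above every female. Its log2 fold change of 0.22 ± 0.07 had an adjusted p of 0.0343, and was 0.23 in batch 1 and 0.21 in batch 2. This call was lost when HK female 1, 3 or 4, HK male 1, 4 or 5, untreated female 1, or untreated male 2 or 5 was left out, with adjusted p between 0.0546 and 0.0981. mt-Ti was at 4.83, 8.01 and 11.4 CPM in males and 2.73, 5.05 and 6.21 CPM in females, with 7 males above every female. Its log2 fold change was 0.68 ± 0.15 (adjusted p = 0.00396), 0.40 in batch 1 and 0.87 in batch 2, on few counts. Within a single batch the adjusted p stayed under 0.05 only for mt-Nd1 in batch 1 (0.0246) and mt-Ti in batch 2 (0.0192).

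The other mRNAs and rRNAs were positive without being called. The log2 fold change was 0.17 for mt-Nd2 (adjusted p = 0.0895), 0.15 for mt-Nd5 (0.167), 0.22 for mt-Nd6 (0.280), 0.32 for mt-Rnr1 (0.237) and 0.28 for mt-Rnr2 (0.0925) in edgeR. Without untreated male 4 the adjusted p of mt-Rnr2 was 0.0242. mt-Tw, at 0.36 with an adjusted p of 0.0935, was at 0.0389 without HK male 2.

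Shares of the library also differed. Nearly all counts of the 13 mRNAs came from 7 of them. The 13 mRNAs held 8.36% ± 0.543 of the counts in males and 7.34% ± 0.709 in females (SD, n = 10 each; exact permutation within treatment and batch, p = 0.00236, adjusted p = 0.0142). The lowest, median and highest shares were 7.77%, 8.30% and 9.43% in males against 5.89%, 7.40% and 8.20% in females, and every male lay above the female median. All 37 genes together held 8.94% ± 0.577 and 7.83% ± 0.740 (n = 10 each), with an exact permutation p of 0.00208 and an adjusted p of 0.0142. Leaving out any 1 mouse kept the difference of all 37 between 0.944 and 1.22 points and the adjusted p at 0.035 or under. Within batch 1 the difference was 0.766 points (exact permutation p = 0.222, with 4 males and 4 females) and within batch 2 it was 1.34 points (exact permutation p = 0.01, with 6 of each).

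The rRNAs held 0.580% ± 0.118 in males and 0.487% ± 0.0812 in females (n = 10 each; exact permutation p = 0.0715, adjusted p = 0.215). The tRNAs held 0.00187% ± 0.000359 and 0.00142% ± 0.000241 (n = 10 each; exact permutation p = 0.00861, adjusted p = 0.0344). The call of the tRNAs was lost without untreated male 5, HK male 4 or untreated female 1, 2, 3 or 4, with adjusted p of at most 0.07.

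**Figure D4:**
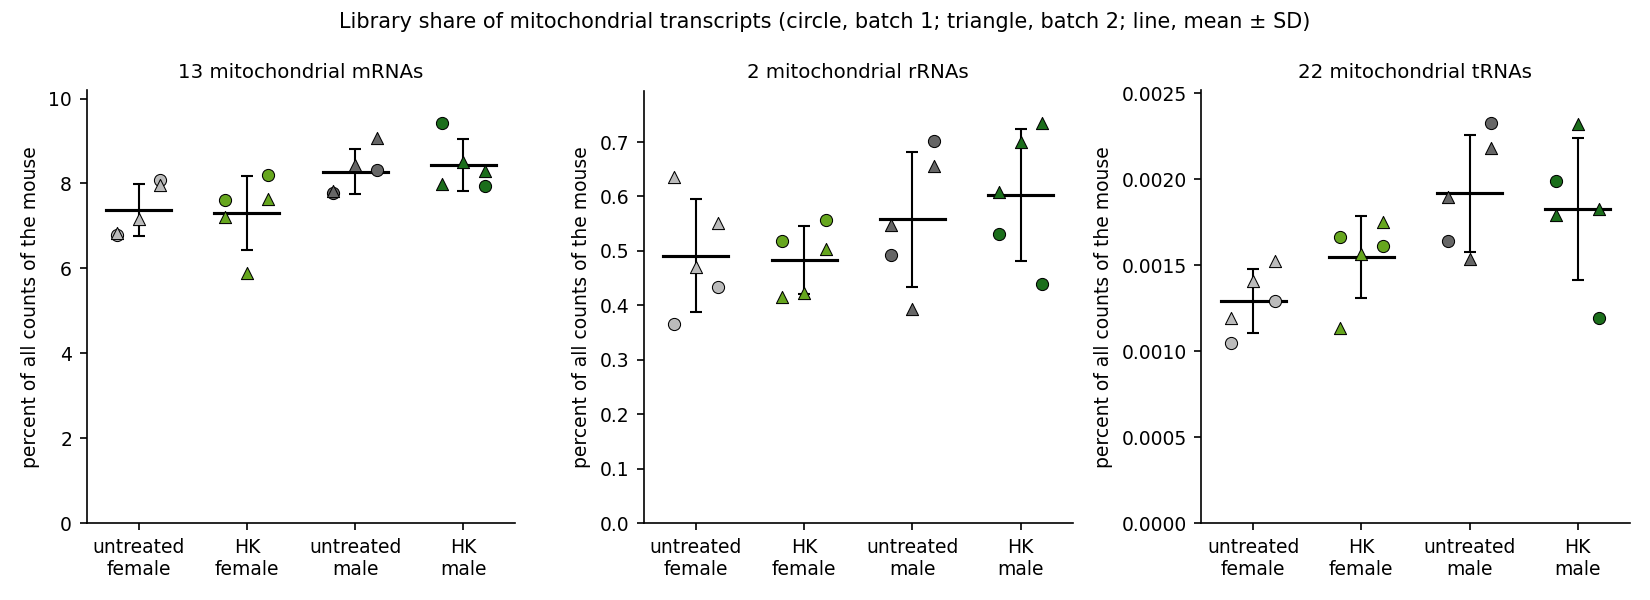
Percent of all counts of a mouse (y axis, from 0) held by the 13 mRNAs, the 2 rRNAs and the 22 tRNAs in the 4 groups of 5 mice; circles are batch 1, triangles batch 2, and lines with bars the mean ± SD. Males lie higher than females for the mRNAs (8.36% against 7.34%), and the treatments overlap within each sex.

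The complex I to complex IV ratio, in log2 male minus female, was 0.0191 in batch 1 alone and -0.107 in batch 2 alone (exact permutation p = 0.005, the smallest possible, unadjusted). No ratio within the mitochondrial counts was called between the sexes over both batches, nor was the ratio of the 13 mRNAs to the nuclear oxidative phosphorylation genes (log2 1.93 ± 0.153 in males and 1.87 ± 0.136 in females, n = 10 each; exact permutation p = 0.302, adjusted p = 0.533). Of those 81 nuclear genes 44 were called higher in males and 0 lower, where 8.69% of all genes were called higher and 7.23% lower. All 81 fitted log2 fold changes were positive, with a median of 0.18. Other markers also moved with sex. All 8 slow fibre genes had a lower fitted level in males, 6 of them called, and their summed level was 862 to 7213 CPM in males (median 1080) against 2790 to 5260 CPM in females (median 3789). All 6 adipocyte genes had a lower fitted level in males, 4 of them called, with summed levels of 9.28 to 80.5 CPM (median 28.5) against 8.65 to 155 CPM (median 80.8), and no gene of either list was at 0 in every mouse. Of 10 skeletal muscle markers 3 were called higher in males and 0 lower, of 8 macrophage genes 1 higher and 0 lower, and of 5 Schwann cell genes 0 higher and 1 lower. No blood, endothelial, satellite cell or fibro-adipogenic progenitor gene was called. The part of these markers in the sex difference was not tested.

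The third comparison was between the batches. Of the 15 members 2 were called higher in batch 2 and 1 lower, where 36.9% of all genes were called, 18.0% higher and 18.9% lower. mt-Rnr1, the 12S rRNA, was at a lowest, median and highest level of 622, 1074 and 1442 CPM in the 8 mice of batch 1 and 867, 1472 and 2438 CPM in the 12 of batch 2. Its log2 fold change (batch 2 minus batch 1) was 0.56 ± 0.18 (SE; adjusted p = 0.0215 in edgeR). It was 0.70 in males alone and 0.39 in females alone, not called in either. mt-Rnr2, the 16S rRNA of the same precursor, was at 2888, 3988 and 6147 CPM in batch 1 and 2818, 3958 and 5218 CPM in batch 2, a log2 fold change of -0.02 ± 0.12 with an adjusted p of 0.904.

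The ratio of the rRNAs divided the batches with little overlap. The log2 ratio of mt-Rnr1 to mt-Rnr2 was -1.97 ± 0.251 in batch 1 (n = 8) and -1.40 ± 0.240 in batch 2 (n = 12), and 10 of the 12 mice of batch 2 lay above every mouse of batch 1. The exact permutation p within sex and treatment was 0.0003, with an adjusted p of 0.009 over 30 tests. The difference was 0.825 in males alone (exact permutation p = 0.01, the smallest possible) and 0.314 in females alone (exact permutation p = 0.05). The ratio of both rRNAs to the 13 mRNAs was not called (difference 0.182, exact permutation p = 0.165, adjusted p = 0.354).

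mt-Nd6 was at 79.2, 108 and 148 CPM in batch 1 and 97.9, 146 and 211 CPM in batch 2, a log2 fold change of 0.45 ± 0.14 (adjusted p = 0.0149). Its log2 ratio to the 12 other mRNAs was -9.53 ± 0.212 in batch 1 (n = 8) and -9.03 ± 0.287 in batch 2 (n = 12), and 10 of the 12 mice of batch 2 lay above every mouse of batch 1 (exact permutation p = 0.0012, adjusted p = 0.018). The difference was 0.408 in males alone (exact permutation p = 0.08) and 0.609 in females alone (exact permutation p = 0.02). mt-Tw went the other way, from 4.07, 4.70 and 9.35 CPM in batch 1 to 2.82, 4.19 and 4.99 CPM in batch 2, a log2 fold change of -0.48 ± 0.14 (adjusted p = 0.0129). It was -0.73 in males alone (adjusted p = 0.0256) and -0.19 in females alone (adjusted p = 0.428).

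**Figure D5:**
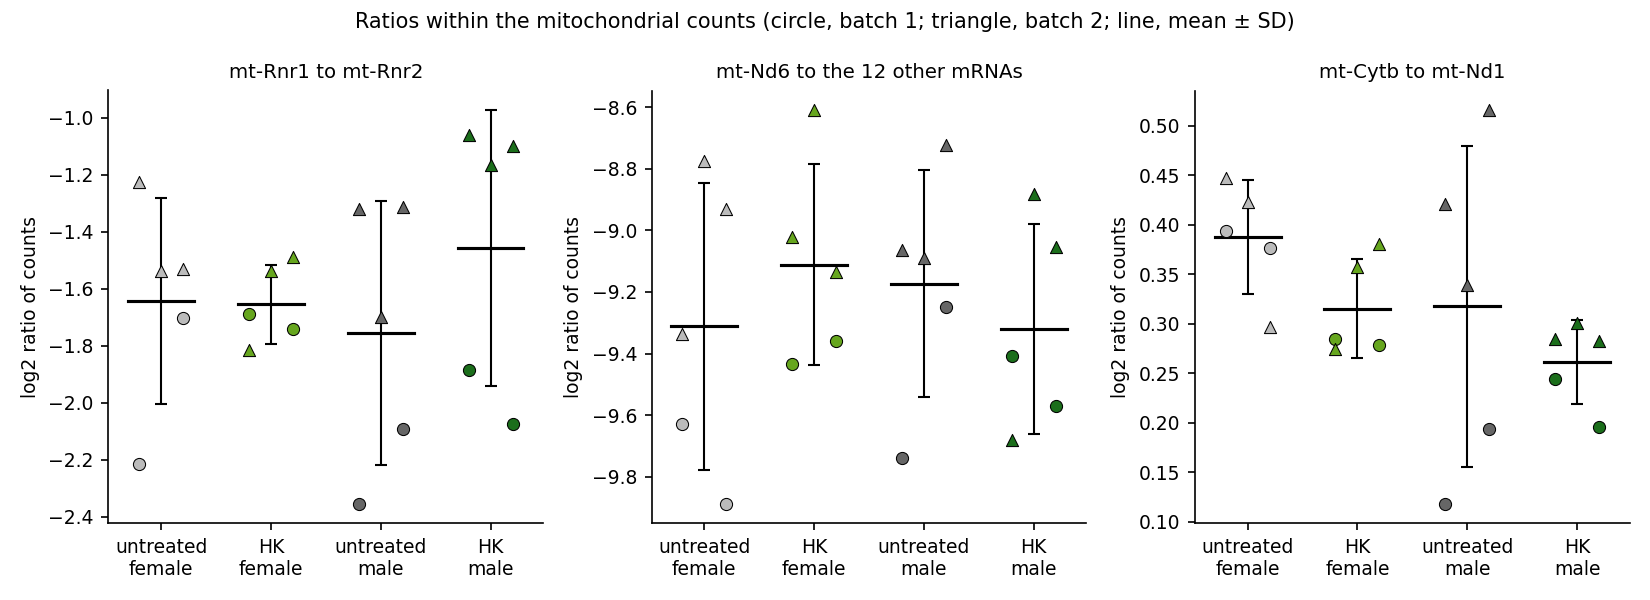
Log2 ratio of counts (y axis) of mt-Rnr1 to mt-Rnr2, of mt-Nd6 to the 12 other mRNAs and of mt-Cytb to mt-Nd1 in the 4 groups; circles are batch 1, triangles batch 2, lines with bars the mean ± SD of 5 mice. In the first panel the triangles lie above the circles in each group except HK females, where 1 mouse of batch 2 lies lowest.

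No heavy-strand mRNA was called between the batches: of mt-Nd1, mt-Nd2, mt-Co1, mt-Nd4, mt-Nd5 and mt-Cytb none was called, with log2 fold changes between -0.14 (mt-Co1, adjusted p = 0.0885) and 0.03 (mt-Cytb). Without untreated female 5 the adjusted p of mt-Co1 was 0.0495. The 13 mRNAs held 8.02% ± 0.743 of the counts in batch 1 (n = 8) and 7.73% ± 0.859 in batch 2 (n = 12; exact permutation p = 0.374, adjusted p = 0.747). Of the 81 nuclear oxidative phosphorylation genes 32 were called higher in batch 2 and 0 lower, where 18.0% of all genes were called higher, and the list was not tested against that share. The log2 ratio of the 13 mRNAs to them was 2.01 ± 0.124 in batch 1 (n = 8) and 1.83 ± 0.110 in batch 2 (n = 12), with an exact permutation p of 0.006 and an adjusted p of 0.06. It passed when HK female 3, HK male 4, HK male 5 or untreated female 1 was left out, with adjusted p between 0.0113 and 0.0467. The log2 ratio of mt-Cytb to mt-Nd1 was 0.261 ± 0.0935 in batch 1 (n = 8) and 0.360 ± 0.0780 in batch 2 (n = 12), with an exact permutation p of 0.0088 and an adjusted p of 0.066. It passed without HK female 3, untreated female 1 or untreated female 5, with adjusted p between 0.0283 and 0.0375.

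Markers of other cells also differed between the batches. Of 8 macrophage genes 8 were called higher in batch 2, with summed levels of 42.0 to 177 CPM there and 15.1 to 46.9 CPM in batch 1, as were 6 of 6 genes of fibro-adipogenic progenitors (308 to 1365 CPM against 170 to 429 CPM), 5 of 5 blood genes (60.8 to 403 CPM against 30.4 to 98.6 CPM) and 3 of 6 adipocyte genes (17.1 to 155 CPM against 8.65 to 99.5 CPM). Fewer were called higher among skeletal muscle markers (2 of 10), endothelial (1 of 6) and satellite cell genes (1 of 4), and 0 among slow fibre (8 tested) and Schwann cell genes (5 tested), where 18.0% of all genes were called higher. The part of these markers in the batch differences of mt-Rnr1, mt-Nd6 and mt-Tw was not tested.

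The nuclear genes that act on mitochondrial RNA and DNA showed no treatment call in 4 further lists: transcription (8 tested), RNA processing (36), DNA maintenance (15) and biogenesis regulators (16). In each list the genes with the lowest p in either direction had small log2 fold changes (HK minus untreated). These were 0.14 for Tfb2m, a transcription factor of mitochondrial promoters, and -0.10 for Tefm, the elongation factor. Of the RNA processing list they were 0.09 for Slirp, an mRNA-stabilizing protein, and -0.11 for Hsd17b10, a subunit of RNase P. Of DNA maintenance they were 0.17 for Mgme1, an exonuclease, and -0.07 for Ssbp1, the single-strand DNA-binding protein. Of the regulators they were 0.20 and -0.10 for the deacylases Sirt1 and Sirt3, and of oxidative phosphorylation 0.11 for Ndufc1 of complex I and -0.09 for Atp5h of the ATP synthase. Their adjusted p in edgeR lay between 0.814 and 0.874.

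With batch, calls in these lists are read against the 36.9% of all genes called, 18.0% higher and 18.9% lower, and no list was tested against that share. Of the 8 transcription genes 1 was called higher in batch 2 (Mrpl12, 0.21) and 2 lower, with the lowest p for Tfam, which packages mitochondrial DNA and starts its transcription (-0.22, adjusted p = 0.00847 in edgeR). Of the 36 RNA processing genes 3 were called higher and 8 lower, with the lowest p for the tRNA-modifying enzymes Cdk5rap1 (0.36) and Nsun3 (-0.42, adjusted p = 0.00018). Of the 15 DNA maintenance genes 0 were called higher and 5 lower, with the lowest p for Rrm2b, a ribonucleotide reductase subunit (-0.36), and Endog, a nuclease, had the lowest p of those with a positive value (0.09, not called). Of the 16 biogenesis regulators 4 were called higher and 3 lower, with the lowest p in each direction for Ppard (0.36) and Gabpa (-0.30). A larger fold stood at Ppargc1a, a coactivator of mitochondrial biogenesis (1.31, adjusted p = 0.00439 in edgeR), which was singled out after its value was seen. Of the oxidative phosphorylation genes Cox6b1 of complex IV had the lowest p among those higher (0.43), and Ndufb2 of complex I among those with a negative value (-0.13, not called). Each value is a log2 fold change, batch 2 minus batch 1. Between the sexes 8.69% of all genes were called higher in males and 7.23% lower. Of the transcription genes 1 was called higher in males and 0 lower, and of the RNA processing genes 3 and 0. DNA maintenance genes had 0 called higher and 3 lower, and biogenesis regulators 1 and 2. No list was tested against those shares.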

How the data were processed

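Per the study's methods and the submitters' processing notes, reads were aligned with the 2-pass mode of STAR 2.6.1c (GRCm38.p6, GENCODE M25). The authors deposited raw counts per gene, whole numbers with no normalization. Those notes also name FastQC and DESeq2 1.28.1. The counting tool, strand setting and treatment of reads that fit several places were not given in the sources used here. Groups came from the sample labels. The titles of the 5 HK females read HF where their treatment label gives Haenkenium, and the treatment label was followed. The members, gene lists and tests were chosen with earlier results of these data known. Names, positions and sequences came from GENCODE M21, also on GRCm38, in which 55141 of 55401 identifiers matched.

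Counts were tested in R 4.3.3 with edgeR 4.0.16 (quasi-likelihood test, TMM, filterByExpr, batch, sex and treatment as terms, Benjamini-Hochberg adjustment over all genes tested). On simulated counts of 13509 genes for HK against untreated, the test recovered 89% of 200 genes changed by a fold of 2, with 3.26% false calls. Levels are CPM on TMM-scaled library sizes. Shares and log2 ratios (0.5 added to each count) were compared by two-sided exact permutation within strata of the other factors, over 14400 labellings for treatment and for sex and 10000 for batch, in families of 12 and 30 tests. Of the 10 ratios, mt-Atp8 to mt-Atp6 and mt-Nd4l to mt-Nd4 rest on counts near 0 and are not reported, though they stay in the adjustment. The ratio of complex I to complex IV mRNAs rests on mt-Co1 alone for complex IV. Shares and ratios of the 13 mRNAs rest almost wholly on the 7 with counts. Copies were sought with blastn 2.17.0 among annotated nuclear transcripts (at least 90% identity over 100 bases, near-identical above 99%), and 75-base windows were matched exactly. Depth was 13900180 to 30469644 counts per mouse.

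Named genes were all mRNAs and rRNAs, the 3 tRNAs with the highest means, those at the lowest mean and any called. Also named were the lowest p in each direction of each nuclear list for treatment and batch. Of the copies, those in the chromosome 1 stretch were named, with Gm13340 and Gm13341, which had the most counts. Mrpl12 is also a ribosomal protein gene, and Prorp was not matched. Alternatives were DESeq2 1.42.0 size factors and its Wald test, library sizes from nuclear genes only, library size without TMM, no filter and no covariates. Others were a replicate block, each batch, each sex and each mouse left out. For the shares and ratios they were also permutation without strata, other totals for the shares and other added counts for the ratios.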

Additional observations from a re-analysis of the deposited data

Results flagged for a closer look

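In the groups of 5 mice, 10 values lay apart from the other 4 by Dixon's gap, all of them of mRNAs. They came out of 108 groups examined, which were not of the mRNAs and rRNAs alone. Chance flags about 1 in 20, a rate that is not set for counts near 0, as of mt-Co2 and mt-Atp6. HK female 4 was apart at the low end for 4 complex I mRNAs, with mt-Nd1 at 10146 CPM (others 13208 to 14356), mt-Nd2 at 8161 CPM (others 10302 to 10736), mt-Nd4 at 5412 CPM (others 7147 to 7757) and mt-Nd5 at 6574 CPM (others 8517 to 8659). HK male 1 was apart at the high end for mt-Nd2, at 13820 CPM (others 10735 to 11582). Among the mRNAs of the stretch copied on chromosome 1, mt-Atp6 had 3213 counts in untreated female 4 (others 0 to 54), 43 in HK male 4 (others 1 to 3) and 6 in untreated male 2 (1 in each of the others). mt-Co2 had 55 counts in HK male 2 (others 0 to 1) and 36 in untreated male 1 (0 in the others).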

How the results depend on the processing

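The counts of called members held within 1.5 times under DESeq2 size factors, library sizes from nuclear genes and library size alone. Without a filter on low counts, 1 member was called for HK (mt-Atp6, in which 1 mouse holds most counts), 8 for batch and 10 for sex, where 502, 5560 and 2784 of 30096 genes were called. DESeq2's Wald test called 5 for batch, with 5539 of 30068 genes called. With fewer mice, 1 was called for batch in females alone (mt-Nd6, where 1451 of 13561 genes were called) and 1 in males alone (mt-Tw, 3426 of 13426). For sex, 1 was called in batch 1 alone (mt-Nd1, 1337 of 13664) and 1 in batch 2 alone (mt-Ti, 883 of 13329). No share could be called for sex in batch 1 alone, where the smallest p possible is 0.0556, and the count is 0 by design. The number of batch ratios called was 0 in males alone and 0 in females alone, where the smallest unadjusted p possible is 0.01. Leaving out 1 mouse gave 2 to 4 called batch ratios. The replicate number did not pair the mice: with it as a replicate block 0 members, 0 shares and 0 ratios were called for HK, and of 10 pairs 1 had a correlation over 0.1 and 1 HK mouse correlated best with its own number.

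The values that changed sign were not called in either setting, and the cause was not tested. For HK minus untreated in log2, females alone gave -0.0142 for mt-Co1, -0.0385 for mt-Cytb, -0.00162 for mt-Nd4, -0.00599 for mt-Nd5, -0.0170 for mt-Rnr1 and 0.159 for mt-Tw. Males alone gave -0.0679 for mt-Nd6. Batch 2 alone gave -0.0547 for mt-Cytb, -0.0547 for mt-Nd4, -0.0398 for mt-Nd5, -0.0888 for mt-Nd6 and 0.110 for mt-Tw. Library size only gave -0.00251 for mt-Co1, -0.0277 for mt-Cytb and -0.0287 for mt-Nd4. For batch, females alone gave 0.0194 for mt-Nd1, 0.0166 for mt-Nd5, 0.0934 for mt-Rnr2 and -0.0601 for mt-Ti. For sex, batch 2 alone gave -0.0566 for mt-Tp.

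Ratios in log2 (HK minus untreated) were, in batch 1 alone, -0.0279 for rRNAs to mRNAs and -0.0274 for tRNAs to mRNAs. In males alone they were -0.113 for tRNAs to mRNAs, -0.165 for light- to heavy-strand tRNAs and -0.147 for mt-Nd6 to the other mRNAs, and in females alone -0.0125 for mt-Rnr1 to mt-Rnr2. In batch 2 alone they were -0.00424 for complex I to complex IV mRNAs, -0.0821 for light- to heavy-strand tRNAs and -0.0773 for mt-Nd6. For sex, batch 1 alone gave 0.0191 for complex I to complex IV, 0.0861 for mt-Nd6 and -0.264 for mt-Rnr1 to mt-Rnr2. Shares in percentage points (HK minus untreated) were, in batch 2 alone, -0.295 for mRNAs and -0.274 for all 37. In females alone they were -0.0614 for mRNAs, -0.00838 for rRNAs and -0.0695 for all 37, and in males alone -9.26e-05 for tRNAs. For batch, males alone gave 0.0538 for all 37.

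With 1 mouse left out, the HK value ran from -0.0302 to 0.0460 for mt-Cytb, -0.0246 to 0.0440 for mt-Nd4, -0.0290 to 0.112 for mt-Rnr2 and -0.0754 to 0.0593 for mt-Tw. The batch value ran from -0.000117 to 0.0652 for mt-Cytb and -0.0618 to 0.0756 for mt-Rnr2, and the sex value from -0.0613 to 0.232 for mt-Tp. HK ratios ran from -0.00654 to 0.104 for rRNAs to mRNAs and -0.0455 to 0.0837 for mt-Nd6. Sex ratios ran from -0.110 to 0.0321 for mt-Nd6 and -0.0202 to 0.126 for mt-Rnr1 to mt-Rnr2. HK shares ran from -0.127 to 0.266 for mRNAs, -0.00357 to 0.0376 for rRNAs and -0.108 to 0.298 for all 37. Low counts limit the precision of the tRNAs. The near-0 counts of the 6 mRNAs of the copied stretch gave no level to compare, and their cause was not tested.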
